A study of Mus musculus with 8 samples.

Results

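The metabotropic glutamate receptor genes Grm2, Grm3, Grm4, Grm5, Grm7 and Grm8 were taken by symbol from the deposited gene tables of mouse brain cortex. All 6 were present among the 15693 genes listed. Polyadenylated RNA was sequenced from the flash-frozen cortex of mice 4 months of age, all in batch 1, with 4 wild-type (WT) and 4 TDP-43Q331K libraries. TDP-43, the product of Tardbp, is an RNA-binding protein, and Q331K is a change in it that is linked to amyotrophic lateral sclerosis (ALS). The genotype of the WT animals is written as C57BL/6J in the sample labels and as c57bl6/n in the description of the series. Neither a promoter nor whether the mutant sequence is a transgene or a change in the mouse gene itself is stated. The series asks how the cortical transcriptome differs in a line whose motor cortex neurons are described as less excitable.

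Metabotropic glutamate receptors are G protein-coupled receptors that respond to glutamate over a slower time course than the ion channels that carry fast excitation. Grm5 encodes a group I receptor, mGlu5, which couples through Gq to phospholipase C and sits mainly around the postsynaptic site. Grm2 and Grm3 encode the group II receptors and Grm4, Grm7 and Grm8 encode group III receptors. Both of these groups couple to Gi/o proteins, lower cyclic AMP and damp transmitter release, and Grm3 is also made by astrocytes.

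The division into groups can be read in the genes' own coding sequences, in which the closest relatives are also the members whose reads could most easily be confused. The 60 coding bases that follow are the stretch in which the 6 genes are most alike, shown for Grm5 and the group III genes to make clear how far they still differ. The sequences are from GENCODE M21 transcripts (GRCm38), written 5′ to 3′ along the coding strand, and capitals mark bases that differ from the most common base of the 6 genes.
Grm5: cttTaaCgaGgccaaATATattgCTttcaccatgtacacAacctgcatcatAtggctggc
Grm4: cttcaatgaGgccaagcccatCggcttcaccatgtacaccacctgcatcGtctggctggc
Grm7: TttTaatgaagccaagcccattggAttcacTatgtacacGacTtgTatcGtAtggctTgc
Grm8: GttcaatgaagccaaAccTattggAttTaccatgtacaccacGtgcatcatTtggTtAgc
All 6 genes shared 40 of these 60 bases. The window starts at coding base 2298 in Grm5, 2340 in Grm4, 2349 in Grm7 and 2328 in Grm8. Over the whole aligned coding sequence, identity was 68.6% between Grm7 and Grm8, 67.7% between Grm4 and Grm7, 67.7% between Grm4 and Grm8, and 66.3% between Grm2 and Grm3. Every pair drawn from different groups lay between 50.9% and 55.4%.

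In a search with 1 transcript per member, the transcripts of other genes that matched at 90% identity or more were antisense RNAs that overlap the member on the opposite strand. These were Gm28111 across 448 bases of Grm2 and Gm20387 across 130 bases of Grm7. Gm20387 had its own row in the table, with a WT mean of 2.67 ± 0.388 CPM (a count scaled by library size; SD, n = 4) and a mutant mean of 2.67 ± 0.457 CPM (SD, n = 4). Mir592, a microRNA gene, overlaps an annotated exon of Grm8 on the same strand and had no row in the table. The labels and headers do not say whether strand was used in counting, so reads from either strand of these overlaps cannot be assigned with certainty. TDP-43 is known to bind UG-rich RNA, and the DNA letters TGTGTGTGTGTG were therefore searched on the sense strand of each member's transcript. None of the 6 transcripts held this motif, and 286 (7.55%) of the 3787 genes with a transcript in the same range of length did. The longest unbroken TG run was 8 bases, in the 3′ untranslated region of Grm2. The search covers only 1 spliced transcript per member, not its other transcripts or introns. The 3′ untranslated region searched was only 74 bases in Grm7 and 230 bases in Grm3, so longer ones were not examined.

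The libraries held between 45253021 and 58115164 counts. Xist, which is transcribed from the inactive X chromosome of females, lay at or above 876 CPM in WT replicates 2 and 3 and TDP-43Q331K replicates 1 and 2 and at or below 1.37 CPM elsewhere, so each genotype held 2 libraries of each kind. Tardbp had a WT mean of 184.5 ± 12.8 CPM and a mutant mean of 154.8 ± 11.7 CPM (SD, n = 4 each, edgeR adjusted p 0.106). The tissue carried its defining markers, with Slc17a7 of cortical excitatory neurons at 1192 to 1428 CPM and Tbr1 at 107 to 149 CPM over the 8 libraries. Of 75 markers measured from 12 lists of cell types and regions, 0 passed edgeR's test. The median log2 fold change was -0.11 for excitatory neurons, 0.12 for interneurons, 0.10 for oligodendrocytes, 0.04 for their precursors, -0.07 for microglia, 0.00 for endothelium, -0.01 for dentate gyrus, 0.06 for striatum, 0.22 for cerebellar granule cells and 1.16 for choroid plexus, whose 4 markers summed to between 11.2 and 556 CPM. Markers of other regions outside the cortex are given beside receptors whose extreme libraries they shared, in pairings chosen after the values were seen. In bulk tissue, fewer cells of a type and less RNA per cell cannot be told apart.

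Grm5 was the most abundant of the receptor genes and Grm8 the least. As CPM per kilobase of exon, the mean level over the 4 WT libraries was 27.4 ± 2.72 for Grm5, 22.9 ± 1.40 for Grm3, 11.3 ± 0.556 for Grm7, 10.6 ± 0.976 for Grm2, 5.28 ± 0.949 for Grm4 and 1.80 ± 0.101 for Grm8 (SD, n = 4). The order was the same by the means over the TDP-43Q331K libraries. Within the same library, Grm5 was above Grm3 in 8 of 8 libraries and Grm7 above Grm2 in 7 of 8, the exception being WT replicate 3. Pooled over the 8 libraries, the ranges of Grm5 and Grm3 overlapped, as did those of Grm7 and Grm2. Those of the other neighbours in the order did not. The length was the union of annotated exons, 10247 bases for Grm5, 5886 for Grm7 and 9898 for Grm8 but 3049 for Grm3. The single transcripts used for the sequences above were 4500, 3127, 3856 and 3049 bases in the same order. Levels, overlaps, shares and sums per kilobase therefore depend on the length taken, and other lengths were not tried.

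**Figure D1:**
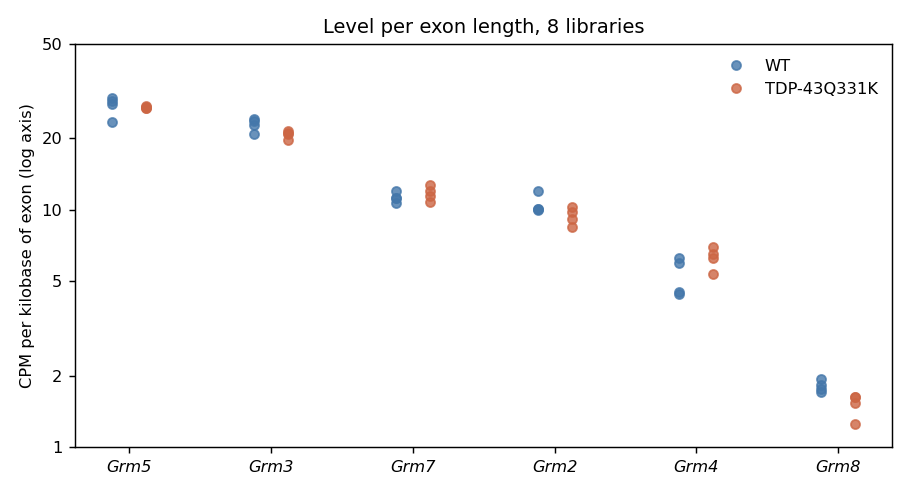
Level of each receptor gene as CPM per kilobase of exon (vertical axis, log scale), with 1 point per library, WT in blue and TDP-43Q331K in orange. Grm5 and Grm3 lie between 19.6 and 29.6, Grm7 and Grm2 between 8.46 and 12.7, and Grm8 below 2.

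Of the summed level per kilobase of the 6 genes, Grm5 made up 34.5% ± 2.39 in WT and 35.3% ± 1.19 in TDP-43Q331K (SD, n = 4). Grm8 made up 2.28% ± 0.204 and 1.96% ± 0.184 (SD, n = 4). The sum of the group II genes ran from 32.8 to 34.2 CPM per kilobase in WT and from 28.1 to 31.4 in TDP-43Q331K. The sum of the 3 group III genes ran from 17.5 to 18.9 in WT and from 18.6 to 21.3 in TDP-43Q331K. The group II sums did not overlap between genotypes and the group III sums did, but Grm2 and Grm3 each overlapped when taken singly. WT replicate 3 was the highest WT library in Grm2 and the lowest in Grm3. How often sums of other genes do not overlap was not computed, and these sums were not tested.

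None of the 6 receptor genes differed between the genotypes by edgeR's quasi-likelihood test at an adjusted p under 0.05, a threshold that 0.943% of all genes passed. At an unadjusted p under 0.05, Grm3 and Grm8 were lower, where 7.77% of all genes were lower by that measure, and DESeq2 called 0 of the 6 against 4.47% of all genes. Fitted log2 fold changes (log2 differences), TDP-43Q331K minus WT, were negative in 4 members and positive in 2, with a median of -0.08 beside 0.00 over all genes. They lay between -0.26 for Grm8 and 0.25 for Grm4. Only in Grm8 did the groups not overlap, as was so, in the lower direction, for 5.19% of all genes.

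**Figure D2:**
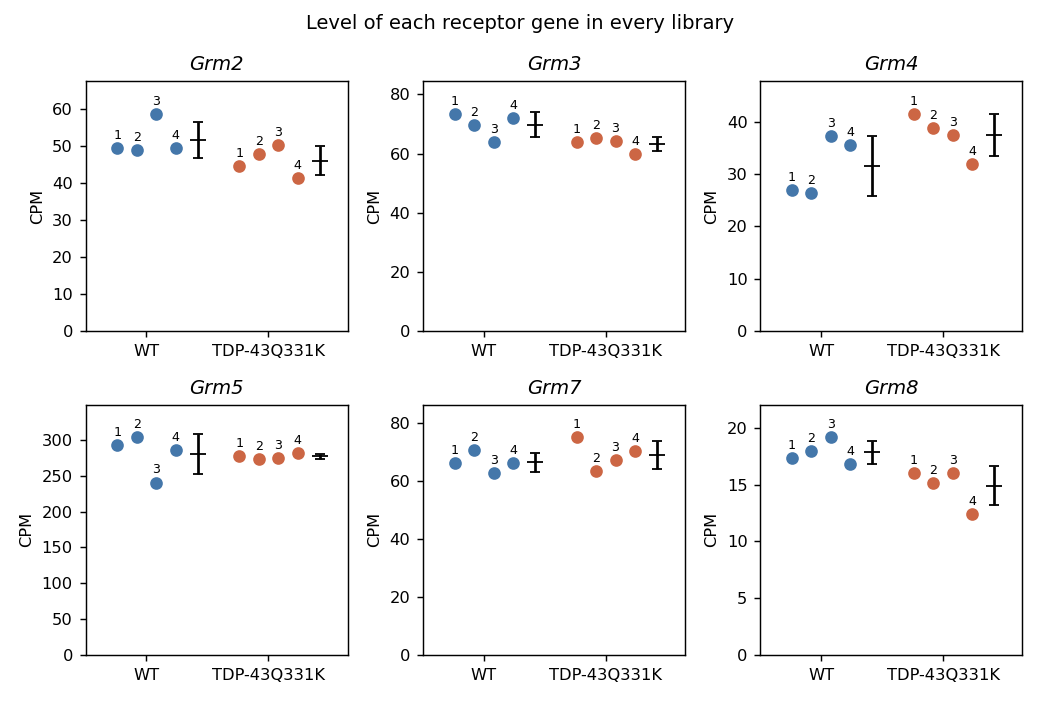
CPM of each receptor gene in every library (numbers are replicate numbers), with the mean and SD of each genotype in black. The Grm8 points of TDP-43Q331K lie below those of WT, and in the other 5 genes the groups overlap.

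Grm5, the group I receptor gene, was the steadiest between genotypes. In WT its level was 293, 304, 241 and 286 CPM, in the order of the replicate numbers as for all values that follow, and in TDP-43Q331K it was 278, 274, 275 and 281 CPM. All 4 mutant libraries fell inside the WT range, and WT replicate 3 was the low library. The means were 281 ± 27.8 and 277 ± 3.26 CPM (SD, n = 4). On the log2 scale the fitted difference was -0.02, with an SE of 0.07 (edgeR adjusted p 0.918). The 95% interval, from -0.17 to 0.13, corresponds to a ratio of 0.889 to 1.09. WT replicate 3 was also the library lowest in markers of the striatum, a region known to be rich in Grm5. The 7 striatal markers, among them Pde10a and Ppp1r1b, summed to 370 CPM there, to between 716 and 1055 CPM in the other WT libraries and to between 463 and 946 CPM in the mutant libraries. The mutant library at 463 CPM was replicate 3, in which Grm5 was at 275 CPM, within the range of the other mutant libraries. None of the 7 striatal markers was at 0. With their mean as a covariate, a fit added after the data were seen, the log2 fold change of Grm5 was -0.03 (edgeR adjusted p 0.838). Without WT replicate 3 the log2 fold change was -0.09.

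Grm2 encodes a receptor that sits mainly on the axons of neurons and limits glutamate release. It stood at 49.4, 49.0, 58.9 and 49.5 CPM in WT and at 44.7, 48.0, 50.4 and 41.4 CPM in TDP-43Q331K. WT replicate 3 was high, and only TDP-43Q331K replicate 3 reached the level of the other WT libraries. The means were 51.7 ± 4.78 and 46.1 ± 3.93 CPM (SD, n = 4). The fitted log2 difference was -0.16, with an SE of 0.08 (95% interval -0.34 to 0.01, edgeR adjusted p 0.337). Without WT replicate 3 the value was -0.10.

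Grm3, the other group II gene, is expressed in both astrocytes and neurons. It stood at 73.5, 69.6, 63.8 and 72.1 CPM in WT and at 63.8, 65.3, 64.3 and 59.8 CPM in TDP-43Q331K. Only WT replicate 3 came down to the mutant levels. The means were 69.7 ± 4.26 and 63.3 ± 2.40 CPM (SD, n = 4). The fitted log2 difference was -0.14, with an SE of 0.05 (95% interval -0.25 to -0.02, unadjusted p 0.0221, edgeR adjusted p 0.23). Of 8 astrocyte markers, which include Slc1a2 and Aldoc, 0 passed the test, 5 were negative, and the median log2 fold change was -0.02. Their summed level ran from 4366 to 5205 CPM in WT and from 4380 to 4912 CPM in TDP-43Q331K, and WT replicate 3 held the lowest value in WT. With the mean of these markers as a covariate, Grm3 was at -0.13 (edgeR adjusted p 0.276). With the mean of the thalamic and bulb markers, described with Grm4 and Grm8, it was at -0.09 (edgeR adjusted p 0.716).

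Grm4 encodes a presynaptic group III receptor that is best known from the granule cells of the cerebellum. It stood at 26.9, 26.5, 37.3 and 35.6 CPM in WT and at 41.6, 38.8, 37.5 and 31.9 CPM in TDP-43Q331K. The WT libraries thus fell into a low pair, replicates 1 and 2, and a pair at the mutant level. The means were 31.6 ± 5.67 and 37.5 ± 4.05 CPM (SD, n = 4). This corresponds to a fitted log2 difference of 0.25, with an SE of 0.12 (95% interval -0.02 to 0.52, edgeR adjusted p 0.364). Its coefficient of variation over the 8 libraries, 16.1%, was the highest of the 6 members, where Grm7 had 6.04%.

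WT replicates 1 and 2 were also the lowest libraries in olfactory bulb markers. The 5 bulb markers, Eomes, Tbx21, Cdhr1, Th and Doc2g, together came to 13.3 and 16.6 CPM in those libraries and to 128 and 89.5 CPM in WT replicates 3 and 4. In the mutant libraries, in replicate order, they summed to 88.5, 156, 141 and 44.0 CPM. Eomes, a transcription factor gene of bulb output neurons, was at 0.18 and 0.09 CPM in this pair, whereas Cdhr1, a cadherin-related gene, was at 10.5 and 13.9 CPM and made up most of the sum. TDP-43Q331K replicate 4, the mutant library lowest in these markers, was also the mutant library lowest in Grm4. With the mean of the bulb markers as a covariate, a fit added after the data were seen, the Grm4 log2 fold change was 0.05 (edgeR adjusted p 0.822). These markers share the low WT pair with Grm4, so bulb content and genotype cannot be told apart by this fit, and a cause was not tested. Of the 6 cerebellar granule cell markers listed, Cbln1, Zic1, Zic2 and Neurod1 were measured, and Cbln3 and Gabra6 were not among the genes deposited. The summed level of those measured ran from 40.8 to 52.9 CPM in WT and from 48.1 to 76.9 CPM in TDP-43Q331K. Of these 4 markers, 3 were positive and 1 was negative, with Zic1 at 1.08 and Neurod1 at -0.29 (edgeR adjusted p 0.163 and 0.265). Cerebellar content is therefore not clearly measured by these markers. With their mean as a covariate, likewise added, Grm4 was at 0.18 (edgeR adjusted p 0.76).

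**Figure D3:**
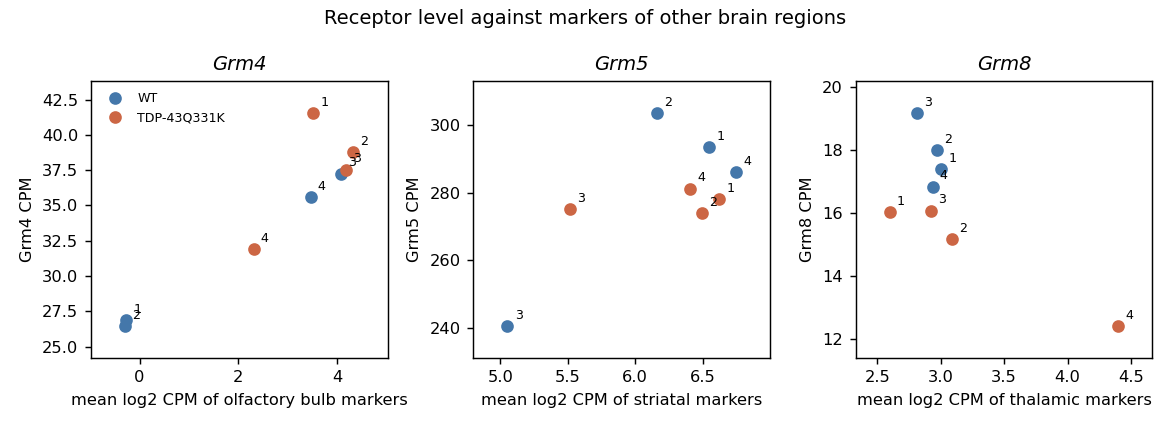
CPM of Grm4, Grm5 and Grm8 in each library (vertical axes, not starting at 0) against the mean log2 CPM of olfactory bulb, striatal and thalamic markers, with replicate numbers beside the points; the pairings were chosen after the values were seen. WT replicates 1 and 2 are lowest in both bulb markers and Grm4, WT replicate 3 is lowest in both striatal markers and Grm5, and TDP-43Q331K replicate 4 is highest in thalamic markers and lowest in Grm8. That last library is also lowest in Grm2 and Grm3, which are not drawn.

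Grm7 encodes the group III receptor of the presynaptic active zone, which needs high concentrations of glutamate. It stood at 66.2, 70.7, 62.7 and 66.1 CPM in WT and at 75.0, 63.5, 67.1 and 70.4 CPM in TDP-43Q331K, and the groups overlapped across most of their range. The means were 66.4 ± 3.27 and 69.0 ± 4.89 CPM (SD, n = 4). The fitted log2 difference was 0.05, with an SE of 0.06 (95% interval -0.07 to 0.18, edgeR adjusted p 0.691). Without TDP-43Q331K replicate 1 the log2 fold change was 0.01, without WT replicate 3 it was 0.03, and without WT replicate 2 or TDP-43Q331K replicate 2 it was 0.09. With a covariate it was 0.18 for cerebellar markers, 0.13 for thalamic and bulb markers and 0.11 for bulb markers alone.

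Grm8, the least abundant member, encodes a further presynaptic group III receptor. It stood at 17.4, 18.0, 19.2 and 16.8 CPM in WT and at 16.0, 15.2, 16.1 and 12.4 CPM in TDP-43Q331K, from 683 to 1044 counts a library. Every mutant library lay below every WT library, and TDP-43Q331K replicate 4 was the lowest. The means were 17.8 ± 1.00 and 14.9 ± 1.72 CPM (SD, n = 4). The difference fitted on the log2 scale was -0.26, with an SE of 0.09 (unadjusted p 0.0134, edgeR adjusted p 0.187). The 95% interval of the ratio ran from 0.731 to 0.955. By p, Grm8 ranked 1125 among the 15693 genes.

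TDP-43Q331K replicate 4 also stood apart in thalamic markers. The 9 thalamic markers, which include Prkcd and Tcf7l2, summed to 244 CPM in that library and to between 81.9 and 109 CPM in the other 7 libraries. The same library was also the lowest in Grm2 (41.4 CPM) and Grm3 (59.8 CPM). It was the highest in dentate gyrus markers (63.8 CPM) and in Ttr of the choroid plexus (518 CPM) as well. Without that library the Grm8 log2 fold change was -0.18 (edgeR adjusted p 0.249), and with the mean of the thalamic markers as an added covariate it was -0.19 (edgeR adjusted p 0.18). Of the 14 thalamic and bulb markers together, 14 had a positive log2 fold change, with a median of 0.67, and 0 passed the test.

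The difference between genotypes was set out within the libraries with and without Xist, with 2 libraries per genotype in each class. As mean log2 CPM, Grm8 was lower in the mutant libraries by a difference of -0.25 in the Xist-expressing class and -0.28 in the other. For Grm3 the differences were -0.05 and -0.23, and for Grm4 0.35 and 0.16. No interaction of genotype with class passed edgeR's test in any of the 6 members. The lowest unadjusted p was 0.0874, for Grm3, and the lowest adjusted p 0.773.

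**Figure D4:**
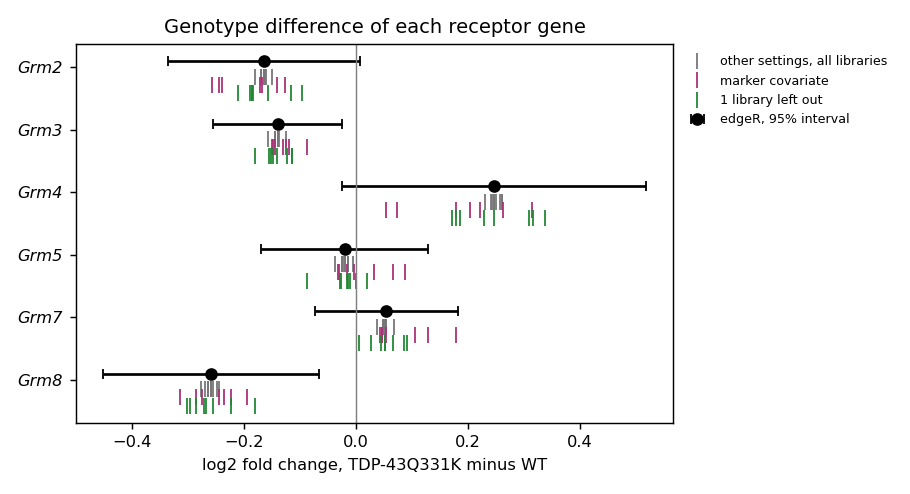
Log2 fold change of each receptor gene, TDP-43Q331K minus WT, with edgeR's 95% interval in black and, beneath, the values under other settings with all libraries (grey), with a marker covariate (purple) and with 1 library left out (green). Grm8 lies below 0 and Grm4 above 0 under each setting drawn, and Grm5 falls on both sides of 0.

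The genes whose values over the 8 libraries most resembled Grm2, Grm3, Grm4, Grm5 and Grm8 were found among 10488 other protein-coding genes by the root mean square distance between standardised log2 CPM, for which the median gene had a distance of 1.39 to 1.44. The nearest were Tmcc1 to Grm3 (distance 0.0977), Syt6 to Grm4 (0.199), Fam81a to Grm8 (0.263), Trhde to Grm2 (0.271) and Tmem164 to Grm5 (0.315). The next in line were 9330182L06Rik for Grm3 (0.239), Ppargc1a for Grm4 (0.212), Rtn4rl2 for Grm8 (0.274), Med10 for Grm2 (0.288) and Cmtm4 for Grm5 (0.321). Syt6, a synaptotagmin gene, had the same low pair as Grm4, as its choice by nearness entails. It was at 27.7 and 24.5 CPM in that pair and between 40.7 and 60.9 CPM in the other 6 libraries. None of these 10 genes passed edgeR's test, which follows in part from their choice as near to genes that did not pass. The points share their libraries and depth, and the distance that chance gives the nearest gene was not computed.

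Downstream of the group I receptor, 0 of 18 signalling and scaffold genes passed edgeR's test, 11 were negative, and the median log2 fold change was -0.05. Plcb4, a phospholipase C gene, had the smallest p. It stood at 69.5, 66.8, 82.2 and 79.5 CPM in WT and at 88.6, 87.2, 82.2 and 83.7 CPM in TDP-43Q331K. Its log2 difference was 0.20, with an SE of 0.07 (edgeR adjusted p 0.189). The lowest of the mutant libraries was just above the highest of the WT libraries, and 705 of all 15693 genes likewise did not overlap in the higher direction. Homer1 encodes a scaffold that binds the tail of mGlu5, and a short form of it is induced by neuronal activity. It stood at 220, 209, 220 and 223 CPM in WT and at 377, 330, 247 and 201 CPM in TDP-43Q331K. The WT libraries were nearly level, whereas the mutant libraries ran from below them to well above. The log2 difference was 0.41 with an SE of 0.16 (edgeR adjusted p 0.249) and 0.25 without TDP-43Q331K replicate 1, and counts per gene do not separate the long and short forms. Dgkz, a diacylglycerol kinase gene, was at -0.12 (edgeR adjusted p 0.257).

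Of 26 genes for Gi/o proteins, their regulators and their effectors, which act downstream of Grm2, Grm3, Grm4, Grm7 and Grm8 and of many other receptors, 3 fell in TDP-43Q331K, 0 rose and 23 did not pass. These 3 make 11.5% of the list, where 0.599% of all genes passed in that direction and 0.344% in the other, and the median of the list was 0.00. Because the list was chosen with earlier results of these data known, its share cannot show an excess over all genes. Rgs14, a regulator of G protein signalling, stood at 61.9, 61.4, 59.1 and 54.4 CPM in WT and at 38.8, 43.9, 40.3 and 47.4 CPM in TDP-43Q331K. Its means of 59.2 ± 3.45 and 42.6 ± 3.82 CPM (SD, n = 4) gave a log2 difference of -0.47 with an SE of 0.07 (edgeR adjusted p 0.0122). The groups were clearly apart, as they were for both other genes.

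Gnb4, a G protein beta subunit gene, stood at 51.3, 49.0, 48.8 and 48.0 CPM in WT and at 39.5, 36.7, 38.1 and 40.7 CPM in TDP-43Q331K. Its log2 difference was -0.35, with an SE of 0.05 (edgeR adjusted p 0.0105). Gng3, a gamma subunit gene of neurons, fell from a WT mean of 171 ± 16.9 CPM to a mutant mean of 130.9 ± 5.19 CPM (SD, n = 4 each). The fitted log2 difference was -0.39, with an SE of 0.07 (edgeR adjusted p 0.0257). The genes for the alpha subunits themselves did not pass, and Gnao1, which encodes the Go alpha subunit, was at -0.09 (edgeR adjusted p 0.449). Over 17 alternative fits with all libraries, such as other scalings, DESeq2 and marker covariates, Gnb4 and Rgs14 passed in 13 and Gng3 in 14. With the mean of the thalamic and bulb markers as a covariate, all 3 calls were lost. The log2 fold changes were then -0.45 for Rgs14, -0.32 for Gnb4 and -0.46 for Gng3, with edgeR adjusted p of 0.156, 0.153 and 0.112. With the 4 measured cerebellar markers, which did not move together, all 3 were lost as well (edgeR adjusted p 0.148, 0.177 and 0.239 in the same order). With the bulb markers alone Rgs14 and Gnb4 were lost (0.0582 each) and Gng3 passed (0.0471). In the 8 fits that left out 1 library, Gnb4 passed in 8, Rgs14 in 7 (edgeR adjusted p 0.0514 without WT replicate 1) and Gng3 in 3. The Gng3 call was lost without WT replicate 1 or any 1 of the 4 mutant libraries, with edgeR adjusted p between 0.0527 and 0.0843.

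**Figure D5:**
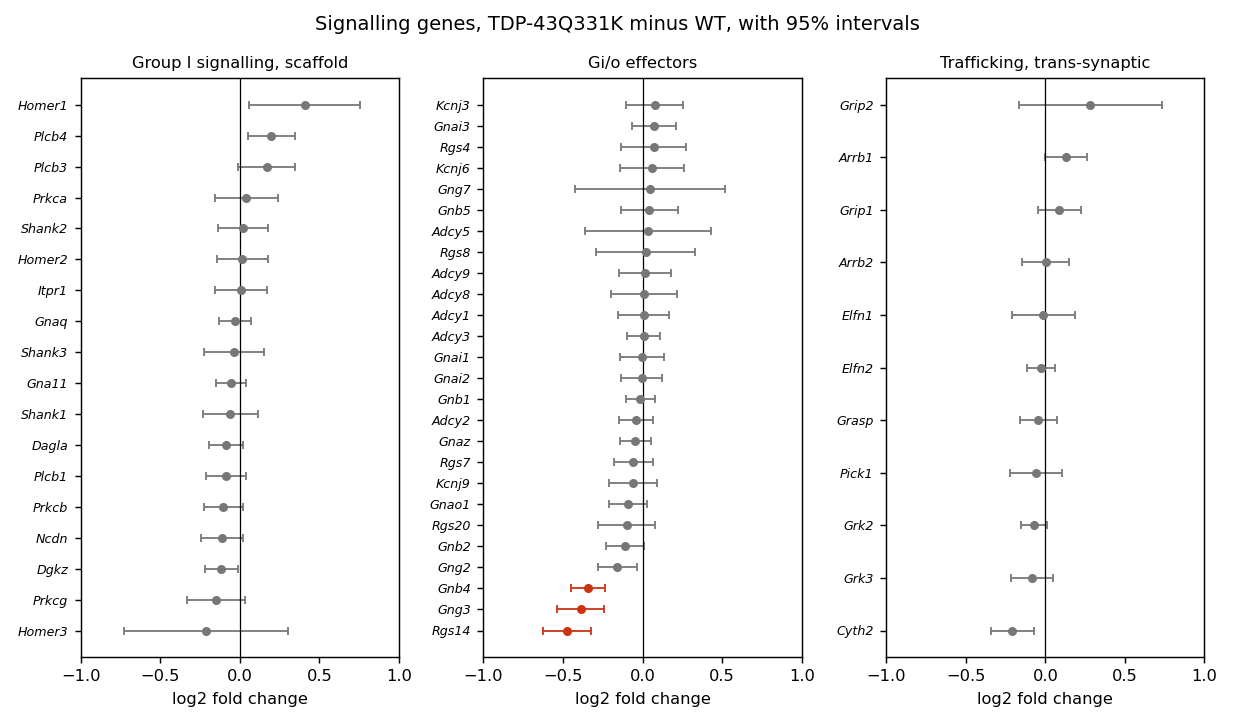
Log2 fold change, TDP-43Q331K minus WT, with 95% intervals for the genes of 3 signalling lists, those past edgeR's all-gene test in red. Gnb4, Gng3 and Rgs14, all in the Gi/o list, are the genes that passed, and all 3 were lower.

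Among 11 genes for proteins that bind, traffic or desensitise these receptors, 0 passed edgeR's test and the median log2 fold change was -0.03. Cyth2, a gene for an exchange factor of small ARF GTPases, stood at 73.8, 67.7, 82.1 and 71.7 CPM in WT and at 66.6, 66.3, 62.5 and 60.5 CPM in TDP-43Q331K. The groups did not overlap, as was so, in the lower direction, for 5.19% of all genes. The log2 difference was -0.21 with an SE of 0.06 (edgeR adjusted p 0.141). DESeq2, which called 4.47% of all genes, gave -0.21 with an adjusted p of 0.0496. That was the 1 fit of 17 alternatives with all libraries in which Cyth2 passed, and it passed in 0 of 8 with 1 library left out. Arrb1, a beta-arrestin gene, was at 0.13 (edgeR adjusted p 0.335) and Grk2, a receptor kinase gene, at -0.07 (edgeR adjusted p 0.403). Elfn1 and Elfn2, which encode adhesion proteins that recruit group III receptors across the synapse, were at -0.01 and -0.03, with adjusted p of 0.967 and 0.771. Grasp, now named Tamalin, a scaffold of group I receptors, was at -0.04 (edgeR adjusted p 0.735).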

How the data were processed

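Libraries were made with oligo(dT) capture and a stranded ligation kit, per the labels' protocols. The build GRCm39, R 4.3.1, STAR 2.7.6a and edgeR 4.4.2 stand in the submitters' processing notes without roles. The counting program, its strand setting and its annotation are not stated. Raw counts per gene were deposited, per the file headers, together with a TMM-normalised signal, which is the same counts as CPM on the TMM-scaled library size. All 8 columns of each table were matched to samples by library name. Symbols, exon lengths (union of exons) and transcripts came from GENCODE M21 (GRCm38), so no coordinates are given.

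Genotypes were compared in R 4.3.3 with edgeR 4.0.16 (TMM, filterByExpr, which removed 0 genes, two-sided quasi-likelihood F-test), with Benjamini-Hochberg adjustment over 15693 genes and a threshold of 0.05. One CPM stands for at least 45.3 counts. Replicates are separate samples by title; that they were separate animals is not stated beyond this, so p-values measure the spread between these samples. No pair of libraries of a group was a copy (chi-square per degree of freedom at least 14.6). On simulated counts for the same comparison, 37.3% of 67 genes changed 1.25-fold and 87.9% of 66 changed 2-fold were recovered. Identity was computed with MAFFT 7.526 and copies sought with megablast 2.17.0.

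The members, the 3 signalling lists, the 12 marker lists and the tests were chosen with earlier results of these data known. Named genes are the members, Tardbp and Xist, each list's genes past the test and its 3 smallest p values, leading markers, and the 2 nearest profiles per member, with those of Grm7 and the coding stretch of Grm2 and Grm3 not reported here. Others, such as Elfn1, Gnao1 and individual markers, were chosen after their values were seen. Alternatives were other scalings and filters, DESeq2 1.42.0, limma 3.58.1 (voom, and trend on the deposited signal as log2 with a pseudocount of 1), a replicate block, Xist and marker covariates, and each library left out.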

Additional observations from a re-analysis of the deposited data

Results flagged for a closer look

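Among 30 groups of 4 libraries examined, those of the 6 receptor genes and 9 named signalling genes, 2 held a library far from the rest of its group, and chance gives about 1 in 20. Grm2 in WT replicate 3 was at 58.9 CPM, above the other WT libraries. Arrb1 in TDP-43Q331K replicate 4 was at 334 CPM, below the other mutant libraries.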

How the results depend on the processing

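None of the 6 receptor genes passed under any of the alternatives, and Grm2, Grm3, Grm4, Grm7 and Grm8 kept their sign in all of them. Over the 17 alternatives with all libraries, the log2 fold change of Grm8 ran from -0.31 to -0.19 (adjusted p 0.0921 to 0.592) and that of Grm4 from 0.05 to 0.31 (0.212 to 0.889). With 1 library left out, Grm8 ran from -0.30 to -0.18 and Grm4 from 0.17 to 0.34. Grm5 turned to 0.0876 with the thalamic and bulb markers, 0.0659 with the bulb markers alone and 0.0319 with the cerebellar markers as covariate. It ran from -0.0876 to 0.0194 with 1 library left out, and turned positive without WT replicate 1 (0.0013) or 2 (0.0194); the cause was not tested.

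The count of genes past the test over the whole table, 148, was 701 with DESeq2 and 396 at a threshold of 0.10. It was 13 with the thalamic and bulb markers, 42 with the bulb markers and 20 with the cerebellar markers as covariate. It ran from 51 to 129 with 1 library left out, lowest without WT replicate 1, and was at or below 97 in each of these fits other than that without WT replicate 4 (129). With the replicate block it was 14, and the calls of Gnb4 (adjusted p 0.0982), Rgs14 (0.0982) and Gng3 (0.116) were lost. Libraries of the same number did not deviate together (correlations over genes from -0.41 to 0.03). No pairing by number was seen, though such correlations cannot exclude one. The covariates of bulb, thalamic, striatal, dentate gyrus and cerebellar markers taken singly were chosen after seeing the data.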
